A study of Mus musculus with 6 samples.

Results

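Transcripts of 5 genes that mark C-fibre low-threshold mechanoreceptors (C-LTMRs) were examined in lumbar dorsal root ganglia: Slc17a8, Th, Tafa4, Zfp521 and Pou4f2. They were taken as the rows of the count tables that carry the NCBI mouse gene identifier of each gene, and all 5 were found among the 36528 listed identifiers. All 5 were also among the 22043 genes with enough counts to be tested. The knockout group was 3 female mice homozygous for a loxP-flanked Scn9a gene that carried the pCAAG.Cre.ER transgene (CreER-positive). The control group was 3 female mice with the same floxed alleles and no transgene, littermates per the series' design. All mice were 12 to 18 weeks old, and each library came from the 6 pooled L4 to L6 ganglia of 1 mouse. Cre-ER is a Cre recombinase fused to an oestrogen receptor domain that enters the nucleus when tamoxifen binds it, and the series title calls the knockout global. The labels name neither an inducer nor the cells that recombined, and no transgenic group without floxed alleles was analysed, so effects of the transgene itself and of Scn9a loss cannot be told apart.

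C-LTMRs are unmyelinated sensory neurons of hairy skin that respond to light touch such as slow stroking. They contain tyrosine hydroxylase and the vesicular glutamate transporter VGLUT3, and develop under the transcription factor Runx1 along a path shared with non-peptidergic nociceptors. The 5 genes encode a transmitter transporter (Slc17a8), a biosynthetic enzyme (Th), a secreted protein (Tafa4) and 2 transcriptional regulators (Pou4f2 and Zfp521).

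In RefSeq on GRCm38.p6, no other gene on either strand overlaps the RefSeq span of any of the 5 genes. The deposited widths exceed that span most for Th (38353 against 7217 bases) and Tafa4 (248917 against 229206 bases), and overlap beyond the span was not checked. Slc17a8 lies on chromosome 10 from 89574020 to 89621249, Th on chromosome 7 from 142892779 to 142899995, and Tafa4 on chromosome 6 from 96831206 to 97060411. Pou4f2 lies on chromosome 8 from 78433009 to 78436647. RefSeq start-site windows of 300 bases, from 250 before to 50 after the annotated start, were matched for 4 of the 5 genes. Shown here are those of the 2 genes with the largest falls and of Th, whose window held matches. Capitals mark a match to 1 of 5 motifs searched on both strands:
Slc17a8, chr10:89621200-89621499, minus strand: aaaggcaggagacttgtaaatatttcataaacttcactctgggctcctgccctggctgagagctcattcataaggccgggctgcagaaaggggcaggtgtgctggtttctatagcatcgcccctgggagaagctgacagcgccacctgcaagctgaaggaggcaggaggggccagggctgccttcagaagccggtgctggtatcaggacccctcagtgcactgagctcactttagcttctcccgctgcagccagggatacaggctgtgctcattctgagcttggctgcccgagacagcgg
Pou4f2, chr8:78436598-78436897, minus strand: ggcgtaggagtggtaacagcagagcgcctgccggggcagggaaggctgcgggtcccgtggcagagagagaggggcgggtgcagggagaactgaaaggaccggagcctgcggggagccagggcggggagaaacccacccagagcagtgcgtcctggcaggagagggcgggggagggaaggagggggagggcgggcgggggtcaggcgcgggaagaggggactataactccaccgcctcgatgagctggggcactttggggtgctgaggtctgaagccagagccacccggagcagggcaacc
Th, chr7:142899946-142900245, minus strand: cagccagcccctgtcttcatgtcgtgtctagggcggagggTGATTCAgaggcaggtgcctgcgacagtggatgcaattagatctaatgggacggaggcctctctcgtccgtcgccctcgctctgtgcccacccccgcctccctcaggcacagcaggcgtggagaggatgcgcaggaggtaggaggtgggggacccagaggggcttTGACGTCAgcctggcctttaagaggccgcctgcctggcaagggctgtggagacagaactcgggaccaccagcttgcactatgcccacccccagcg
The motifs were the RUNX core TGTGGT, the POU class IV core ATTAAT, the cyclic AMP response element TGACGTCA, the AP-1 site TGANTCA and the TATA box TATAAA, and none of the matches overlapped another. The Th window held the cyclic AMP response element, which begins 45 bases before the start, and an AP-1 match 210 bases before it. Of 32851 windows, 1.79% held the response element and 7.81% the AP-1 site. The RUNX core was in 16.8% of windows, the POU class IV core in 4.75% and the TATA box in 13.6%, and none of these 3 was in a window of Slc17a8, Th, Tafa4 or Pou4f2. A second annotated start of Slc17a8 (window 89599766 to 89600065) held none of the 5 motifs.

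The libraries held 52309273 to 62625441 counts in the CreER-positive mice and 40237131 to 63332040 in the controls. Scn9a, the targeted gene, had 620, 565 and 574 CPM (the count scaled to a common library size) in CreER-positive libraries and 635, 611 and 557 CPM in controls. Its log2 fold change was -0.04 (95% interval -0.21 to 0.14). The labels do not name the floxed exons, and a level over the whole gene need not change when a few exons are lost, so this value does not check the group labels. CreER-positive replicate 3 and control replicate 2 differed from the other libraries in transcripts of other cell types, given beside the results they touch.

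Of the 5 C-LTMR genes, 4 fell in CreER-positive ganglia: Slc17a8, Pou4f2, Th and Tafa4. Slc17a8 was reduced most, to 38.3% of the control mean, followed by Pou4f2 at 59.2%, Th at 69.0% and Tafa4 at 70.6%. Zfp521 stood at 81.6% of the control mean and did not pass. Calls are those of edgeR's quasi-likelihood test at a Benjamini-Hochberg adjusted p under 0.05 over the 22043 genes, by which 0.563% of tested genes were lower. DESeq2 and limma-voom called the same 4, and by these 1.22% and 0.558% of tested genes were lower. All 5 log2 fold changes were negative, as were 49.2% of those of all tested genes. For 4 of the 5 genes every CreER-positive library lay below every control, as it did for 9.31% of all tested genes. The 5 genes were chosen with earlier results of these data known, so setting them beside these shares is no independent test. In whole ganglia, fewer cells of a type and less RNA per cell cannot be told apart.

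**Figure D1:**
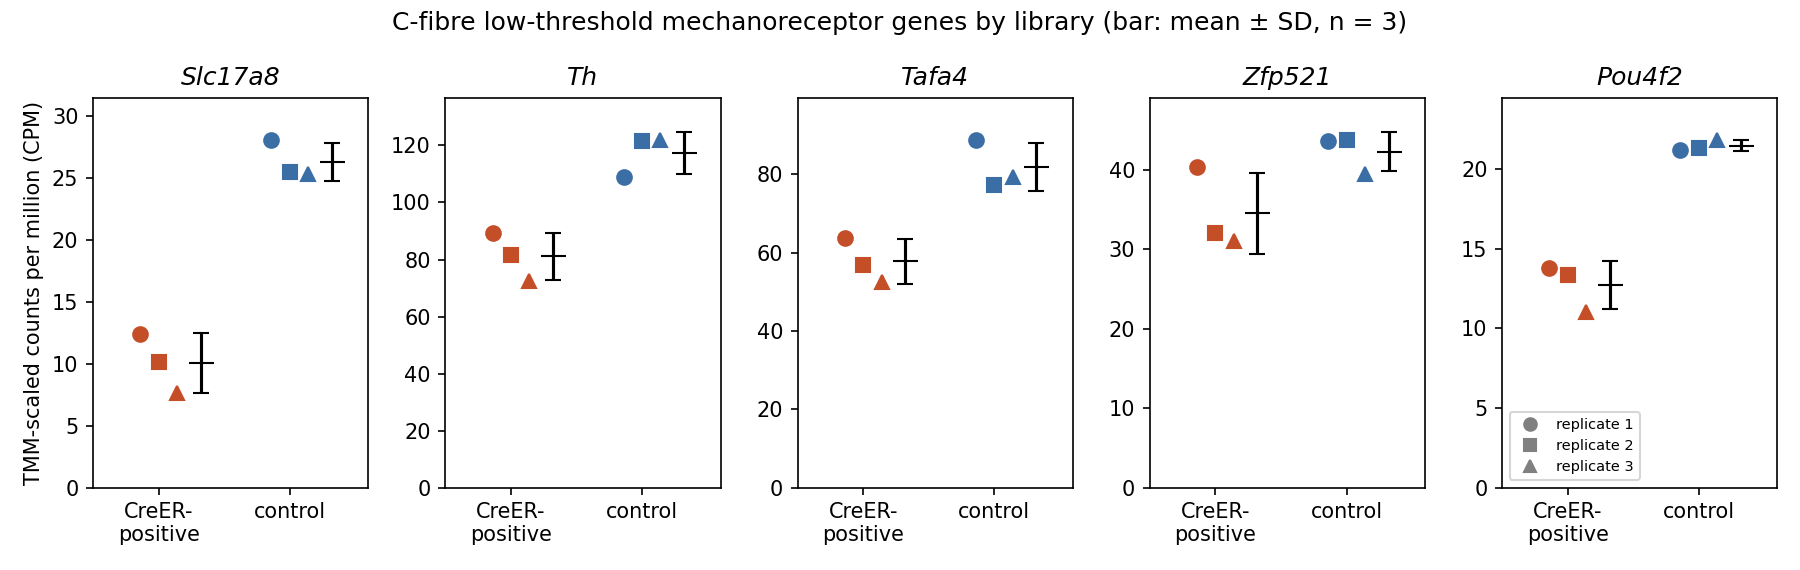
TMM-scaled CPM of each C-LTMR gene in the 3 CreER-positive and the 3 control libraries, with the mean and SD of each group beside the points. Slc17a8 lies between 7.63 and 12.4 CPM in CreER-positive libraries and between 25.3 and 28.1 CPM in controls, and the groups overlap for Zfp521 but not for the other four.

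Slc17a8 (NCBI gene 216227) encodes VGLUT3, which loads glutamate into synaptic vesicles. It had 12.4, 10.1 and 7.63 CPM in CreER-positive libraries and 28.1, 25.5 and 25.3 CPM in controls, from 406 to 745 counts in CreER-positive libraries and 1141 to 1601 in controls. The highest CreER-positive library was at 47.3% of the control mean, and no control was below 96.4% of it. The mean was 10.1 ± 2.40 CPM in CreER-positive and 26.3 ± 1.55 CPM in control libraries (SD, n = 3 each). The log2 fold change was -1.38 ± 0.15 (SE), with an edgeR adjusted p of 0.00337. This was rank 38 from the lowest among the fold changes of all tested genes. The coefficient of variation was 23.8% among CreER-positive mice and 5.89% among controls, while counting error in any 1 library was at most 4.96%.

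Pou4f2 (gene 18997) encodes the POU-domain transcription factor Brn3b, best known from retinal ganglion cells. It had 13.8, 13.3 and 11.01 CPM in CreER-positive libraries and 21.2, 21.3 and 21.9 CPM in controls. The controls differed by less than 1 CPM, and the highest CreER-positive library lay well below them. The mean was 12.7 ± 1.5 CPM in CreER-positive and 21.5 ± 0.335 CPM in control libraries (SD, n = 3 each), a log2 fold change of -0.75 ± 0.09 (SE; edgeR adjusted p = 0.00494).

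Th (gene 21823) encodes tyrosine hydroxylase, the rate-limiting enzyme of catecholamine synthesis. Its values were 89.2, 81.6 and 72.6 CPM in CreER-positive libraries and 109, 122 and 122 CPM in controls, again with no overlap. The log2 fold change was -0.53 ± 0.08 (SE; edgeR adjusted p = 0.0183). The deposited width of the Th row is 38353 bases against 7217 bases in RefSeq. GENCODE transcripts of Th on the same build reach upstream of the RefSeq start, so reads from there may be counted too.

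Tafa4 (gene 320701), also named Fam19a4, encodes a secreted chemokine-like protein of these neurons. In mice its loss is known to increase pain hypersensitivity after injury. It had 63.7, 56.9 and 52.5 CPM in CreER-positive libraries and 88.8, 77.3 and 79.3 CPM in controls, again with no overlap. The log2 fold change was -0.50 ± 0.08 (SE; edgeR adjusted p = 0.0275).

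Zfp521 (gene 225207, chromosome 18 from 13687013 to 13972749) encodes a zinc finger regulator that binds EBF transcription factors. It had 40.3, 32.03 and 31.1 CPM in CreER-positive libraries and 43.6, 43.8 and 39.5 CPM in controls. CreER-positive replicate 1 lay above the lowest control, and the other two lay below all controls. The log2 fold change was -0.29 ± 0.10 (SE), with a 95% interval from -0.51 to -0.07 and an edgeR adjusted p of 0.300. That interval spans 70.1% to 94.98% of the control level.

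The calls of Slc17a8 and Pou4f2 held when any 1 library was left out (adjusted p up to 0.0261 and 0.0407). The call of Th ended without CreER-positive replicate 2 (0.0533), control replicate 2 (0.121) or control replicate 3 (0.116). That of Tafa4 ended without CreER-positive replicate 2 (0.0797) or any 1 control (replicate 1, 0.132; replicate 2, 0.0855; replicate 3, 0.108). Zfp521 passed without CreER-positive replicate 1 (0.04998). The count of called genes was thus 2 of 5 without CreER-positive replicate 2, control replicate 2 or control replicate 3. An exact two-sided permutation test on log2 CPM gave 0.1 for each of the 4 called genes, the smallest p that 3 mice against 3 allow, and 0.2 for Zfp521.

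The size of the fall differed among the CreER-positive mice. In log2 units from the control mean, their average was -0.51, -0.70 and -0.90 in CreER-positive replicates 1, 2 and 3, and between -0.02 and 0.03 in controls. Slc17a8 was the lowest of the 5 in all 3 CreER-positive mice (-1.08, -1.38 and -1.78), and Zfp521 the highest (-0.07, -0.40 and -0.44). The lowest value of each gene was in CreER-positive replicate 3. Averaged over 11 pan-neuronal markers, the same deviation was -0.11 in that library, against 0.07 and 0.09 in the other CreER-positive libraries and -0.03 to 0.04 in controls. Its summed macrophage markers were 71.5 CPM against at most 48.3 CPM in any other library, and its fibroblast markers 1228 CPM against at most 963 CPM.

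Without CreER-positive replicate 3, the log2 fold changes were -1.22 for Slc17a8, -0.66 for Pou4f2, -0.46 for Th, -0.44 for Tafa4 and -0.22 for Zfp521, and the first 4 stayed called (adjusted p up to 0.0216). Without that library and control replicate 2, which carried muscle transcripts (42.8 CPM summed, against at most 7.37 CPM elsewhere), Slc17a8 (-1.24) and Pou4f2 (-0.67) stayed called. Th (-0.44) and Tafa4 (-0.48) then had adjusted p values of 0.0574 and 0.0535.

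**Figure D2:**
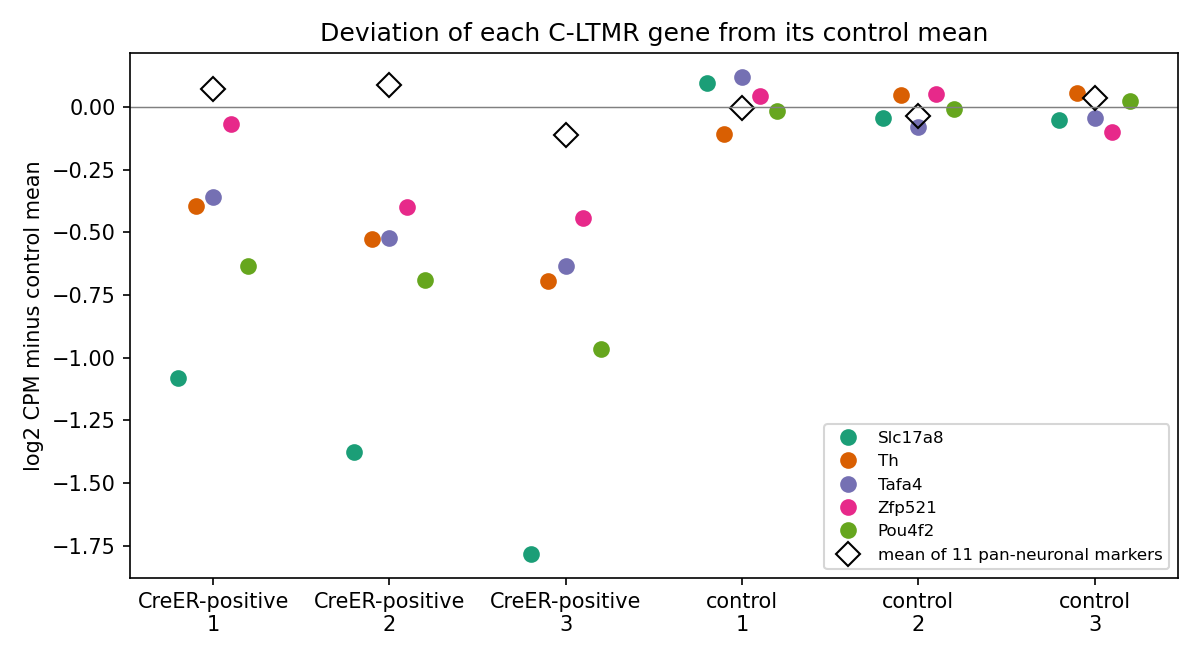
Log2 CPM of each C-LTMR gene minus its control mean, in each library, with the mean of 11 pan-neuronal markers as open diamonds. In CreER-positive libraries Slc17a8 reaches -1.78 while the pan-neuronal mean stays between -0.11 and 0.09.

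Set against neuronal transcripts, the differences were at least as large, though this scaling lowered the fold changes of tested genes in general. Per 10000 counts of the 11 pan-neuronal markers, Slc17a8 had 13.9, 11.01 and 9.84 counts in CreER-positive libraries and 35.4, 32.9 and 29.7 in controls. On the same scale Pou4f2 had 15.5, 14.5 and 14.2 in CreER-positive libraries and 26.8, 27.6 and 25.7 in controls. For both genes the CreER-positive libraries lay closer together than on CPM and the controls farther apart. For Zfp521 the groups no longer overlapped (45.3, 34.8 and 40.1 in CreER-positive libraries, 55.0, 56.6 and 46.3 in controls). With libraries scaled in this way, the log2 fold changes were -1.49 for Slc17a8, -0.85 for Pou4f2, -0.63 for Th, -0.60 for Tafa4 and -0.39 for Zfp521, the first 4 called (edgeR adjusted p 0.00146 to 0.0204; Zfp521 0.287). The median over all tested genes moved from 0.00 to -0.09 with this scaling, and of 22043 genes 109 were called lower and 9 higher. The share of all genes without overlap on this scale was not computed.

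Ratios of 2 genes within a library need no library scaling, and 7 of the 10 pairs had ratios that did not overlap between groups. The pairs share genes, so they are not separate results, and no share over pairs of other genes was computed. The Slc17a8 to Th ratio was 0.139, 0.124 and 0.105 in CreER-positive libraries and 0.258, 0.210 and 0.208 in controls, a log2 difference of -0.87. Relative to Tafa4 and Pou4f2, Slc17a8 was lower by a log2 difference of -0.91 and -0.65. Pou4f2 in turn was lower relative to Th, whose ratio to Pou4f2 was 6.45, 6.12 and 6.59 in CreER-positive libraries and 5.13, 5.69 and 5.58 in controls. Th and Tafa4 did not separate (log2 difference -0.03, exact permutation p 1): their ratio was 1.40, 1.43 and 1.38 in CreER-positive libraries, inside the range of 1.23 to 1.57 of the controls. All 7 non-overlapping pairs had an exact two-sided permutation p of 0.1, the smallest that this test can give for 3 mice against 3, and 0.143 after adjustment over the 10 pairs, so none passed 0.05.

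**Figure D3:**
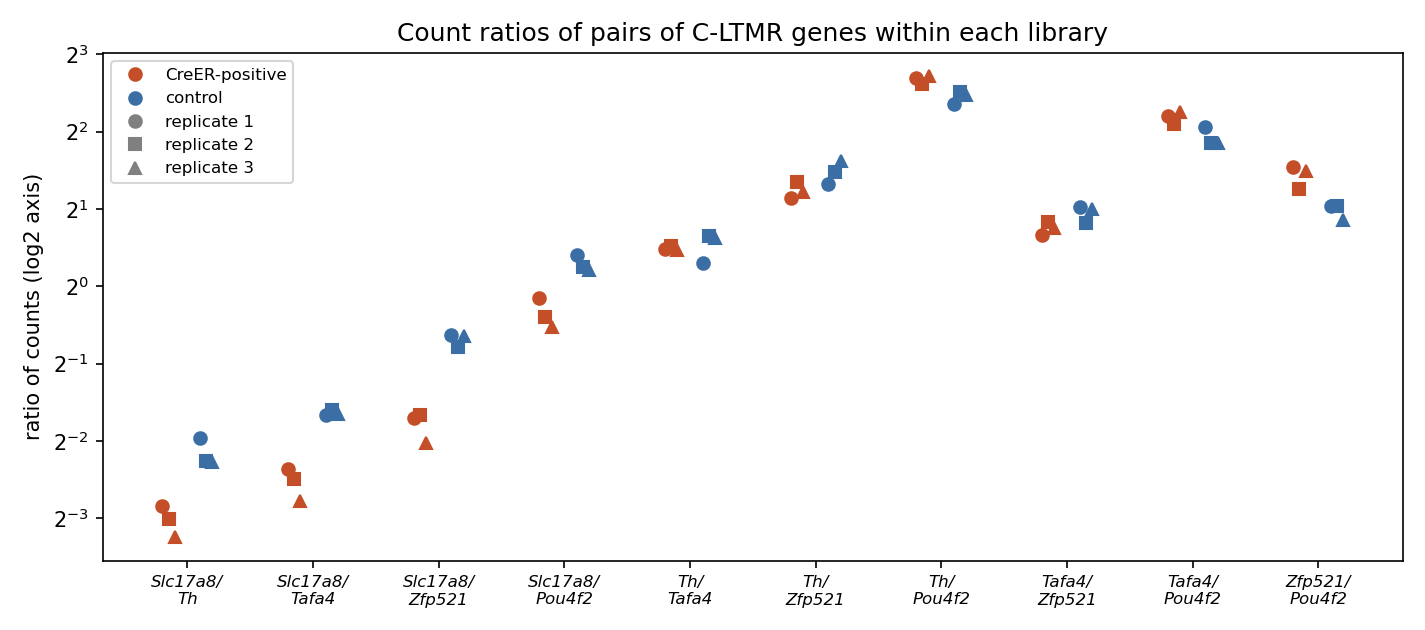
Ratios of the counts of 2 C-LTMR genes within each library on a log2 axis, CreER-positive left of control for each pair. The 4 pairs with Slc17a8 on top are lower in all CreER-positive libraries, while Th to Tafa4 lies between 1.38 and 1.43 there and overlaps the controls.

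Other genes known from C-LTMRs fell in part. Of 9 tested, 4 fell and none rose, against 0.726% of all tested genes called in either direction. The median log2 fold change was -0.35 (0.00 over all tested genes). These 9 genes, like the lists below, were chosen with earlier results of these data known. Setting their calls or overlaps beside shares of all tested genes is therefore no independent test. P2ry1, an ADP receptor gene, had 105, 91.5 and 77.1 CPM in CreER-positive libraries and 177, 169 and 155 CPM in controls (log2 fold change -0.87, edgeR adjusted p 0.00550). Rarres1, a retinoic acid-responsive gene, had 44.8, 39.8 and 38.6 CPM against 63.7, 55.8 and 56.1 CPM in controls (-0.51, 0.0171). Kcnd3, the A-type potassium channel Kv4.3, had 205, 189 and 169 CPM against 264, 257 and 242 CPM in controls (-0.44, 0.0392). Runx1, the transcription factor on which this neuron type depends in mice, had 106, 94.5 and 88.1 CPM against 136, 125 and 126 CPM in controls (-0.43, 0.0358).

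For 8 of the 9 genes, these 4 included, the groups did not overlap, against 15.9% of all tested genes in either direction. Among these 8, Cdh9 was higher in CreER-positive libraries (22.7, 24.2 and 29.9 CPM) than in controls (22.1, 20.1 and 18.05 CPM), and the others were lower. P2ry1 kept its call without any 1 library (adjusted p up to 0.0388). Rarres1, Kcnd3 and Runx1 each lost theirs without CreER-positive replicate 2 or any 1 of the 3 controls, with adjusted p values up to 0.0775, 0.219 and 0.197 in that order of genes. Without both CreER-positive replicate 3 and control replicate 2 they were 0.0556, 0.0776 and 0.0758.

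The remaining 5 did not pass. Cacna1h, the T-type calcium channel Cav3.2, had 60.6, 62.0 and 52.6 CPM in CreER-positive libraries and 74.2, 74.3 and 75.4 CPM in controls. These did not overlap, and its edgeR adjusted p was 0.0530 (-0.35). Cacna1h was called in 7 of the 17 alternative settings, among them DESeq2 (0.00121) and the fit without CreER-positive replicate 3 (0.0164). It was not called by limma-voom (0.0586) or in any other fit without 1 library (adjusted p up to 0.240). The neurturin co-receptor gene Gfra2 (-0.18, 95% interval -0.37 to 0.01) and its signalling partner Ret (-0.15, -0.36 to 0.06) are shared with other neuron types. The Runx1 path, too, is shared with non-peptidergic nociceptors. How far other neuron types contribute to the values of these genes, called or not, was not tested. Piezo2, the mechanically gated channel of touch neurons of several types, averaged 624 ± 36.2 CPM in CreER-positive libraries and 597 ± 17.1 CPM in controls (SD, n = 3 each). Its interval, -0.10 to 0.23, lay above the estimates of all called C-LTMR genes, and its sign turned (-0.03) with libraries scaled to pan-neuronal counts. Cdh9, a cadherin gene, was at 0.35 (adjusted p 0.263).

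**Figure D4:**
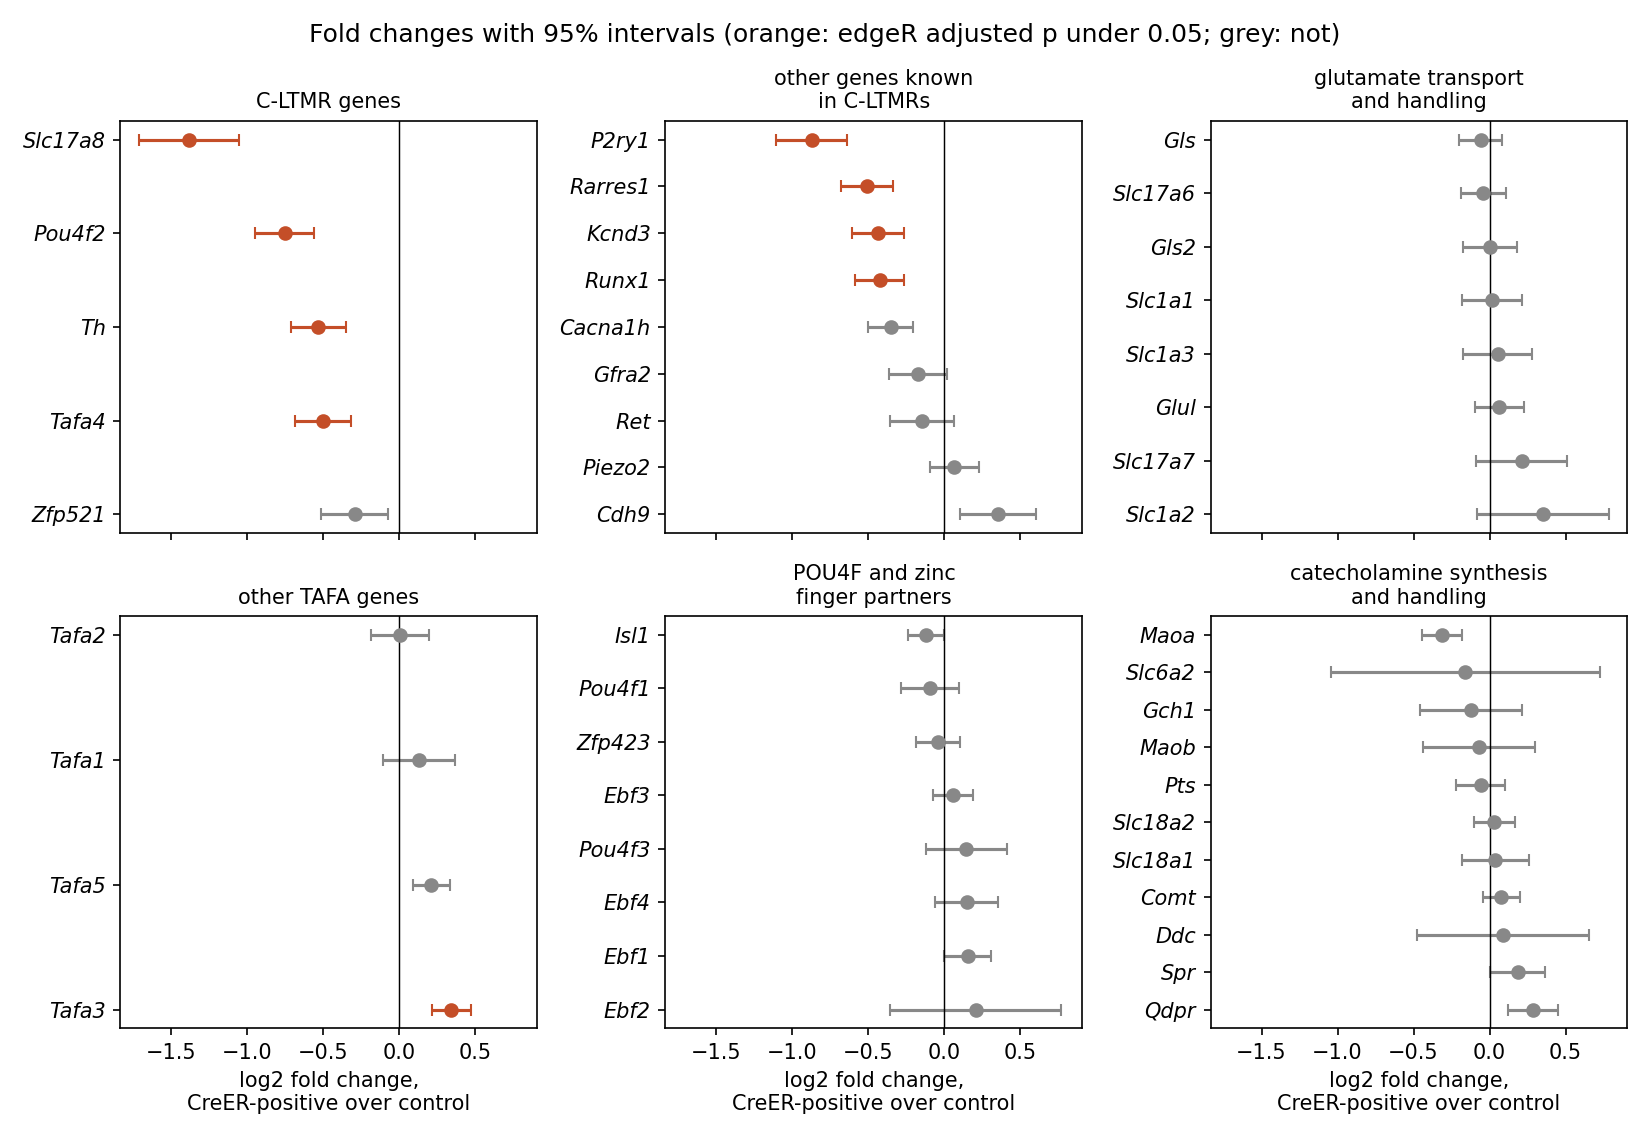
Log2 fold changes of CreER-positive over control with 95% intervals for the C-LTMR genes and for 5 related groups, called genes in orange. Called falls appear in the upper left and upper middle panels, and Tafa3 (0.34) is the single called gene of the other 4 panels.

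Close relatives of the C-LTMR genes were examined because the members of a family are used by different neurons. Per length, on the deposited RPKM scale, Slc17a8 was the least abundant of the vesicular glutamate transporters, with 0.214 ± 0.0470 RPKM in CreER-positive libraries and 0.570 ± 0.0349 RPKM in controls (SD, n = 3 each). Slc17a6 (VGLUT2) had 6.59 ± 0.332 RPKM in CreER-positive libraries and 6.88 ± 0.0799 RPKM in controls. Slc17a7 (VGLUT1) had 7.15 ± 1.25 RPKM in CreER-positive libraries and 6.27 ± 0.751 RPKM in controls. On this scale the order of Slc17a6 and Slc17a7 was within their spread, but the widths include introns (49297 bases for Slc17a6, 12219 for Slc17a7). On CPM, which is not divided by width, Slc17a6 averaged 322 CPM in CreER-positive libraries and 331.5 CPM in controls. Slc17a7 averaged 86.7 and 74.8 CPM, so Slc17a6 lay well above it in counts. Their log2 fold changes were -0.04 (95% interval -0.19 to 0.11) for Slc17a6 and 0.21 (-0.09 to 0.51) for Slc17a7. The ratio of Slc17a8 to Slc17a6 counts was 0.0363, 0.0310 and 0.0257 in CreER-positive libraries and 0.0841, 0.0769 and 0.0768 in controls. No other gene of glutamate transport or handling passed among the 8 tested by edgeR or DESeq2, and 0 had an unadjusted edgeR p under 0.05. The lowest p were those of the glial transporter gene Slc1a2 (log2 fold change 0.35) and Slc17a7.

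In the TAFA family, Tafa4 fell and Tafa3 rose. Tafa3 had 28.2, 30.8 and 29.0 CPM in CreER-positive libraries and 23.5, 22.7 and 23.2 CPM in controls (log2 fold change 0.34, edgeR adjusted p 0.0342), while 0.163% of all tested genes were called higher. With Tafa5, 2 of the 4 relatives were higher in all CreER-positive libraries than in any control, as were 6.63% of all tested genes. This call ended in 5 of the 6 fits without 1 library, with adjusted p values up to 0.216. It held without CreER-positive replicate 3 (0.0218), and it ended with libraries scaled to pan-neuronal counts (log2 fold change 0.25, adjusted p 0.475). Tafa5 (log2 fold change 0.21, adjusted p 0.165), Tafa1 (0.13, 0.750) and Tafa2 (0.00, 0.994) did not pass. The Tafa4 to Tafa3 ratio was 2.26, 1.85 and 1.81 in CreER-positive libraries and 3.78, 3.41 and 3.41 in controls.

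Of the class IV POU factors, Pou4f1 (Brn3a), which is present in most sensory neurons, had 28.0 ± 3.00 RPKM in CreER-positive libraries and 30.4 ± 0.577 RPKM in controls (SD, n = 3 each). Pou4f3 (Brn3c) had 6.02 ± 0.703 RPKM in CreER-positive libraries and 5.53 ± 0.569 RPKM in controls. Pou4f2 had 3.52 ± 0.344 RPKM in CreER-positive libraries and 6.03 ± 0.0595 RPKM in controls. On RPKM, Pou4f2 lay above Pou4f3 in control means by less than the spread of Pou4f3, and below it in CreER-positive means by more than that spread. On CPM, which is not divided by width, Pou4f2 lay above Pou4f3 in both groups. The means were 12.7 and 8.95 CPM in CreER-positive libraries and 21.5 and 8.08 CPM in controls. The log2 fold changes were -0.10 (95% interval -0.29 to 0.09) for Pou4f1 and 0.14 (-0.12 to 0.41) for Pou4f3. The ratio of Pou4f2 to Pou4f3 counts was 1.35, 1.53 and 1.40 in CreER-positive libraries and 2.97, 2.60 and 2.46 in controls.

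Zfp423, the nearest relative of Zfp521, had a log2 fold change of -0.04 (-0.18 to 0.10), and the ratio of the pair overlapped between groups. None of the 8 genes of POU4F relatives and zinc finger partners was called by edgeR or DESeq2. A single one, Isl1 (-0.12), had an unadjusted edgeR p under 0.05, and Ebf1 (0.15) came next. Of the 9 ratios of a C-LTMR gene to a relative that were formed, 8 did not overlap between groups, each with an exact two-sided permutation p of 0.1 (0.113 adjusted over the 9). These 8 have Slc17a8, Tafa4 or Pou4f2 on top, genes whose groups did not overlap by themselves. The ratios were formed after the data were seen and largely restate those falls, so they are no separate result.

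The difference between Th and the rest of the catecholamine pathway was not tested. Of 14 genes for synthesis, cofactor supply, transport and breakdown, 11 had enough counts, and edgeR called none of them. An unadjusted edgeR p under 0.05 was found for 3, beside 2330 of the 22043 tested genes, and DESeq2 called 2, beside 430 of the 22043. The median log2 fold change of the 11 was 0.03. Ddc, which turns L-DOPA into dopamine, stood at 1.43, 1.19 and 0.827 CPM in CreER-positive libraries and 0.935, 0.885 and 1.39 CPM in controls. Gch1, the first enzyme of tetrahydrobiopterin synthesis, the cofactor of tyrosine hydroxylase, had a log2 fold change of -0.12 (95% interval -0.46 to 0.21). Slc18a2, the vesicular monoamine transporter VMAT2, had one of 0.03 (-0.11 to 0.17). Maoa, the gene of monoamine oxidase A, which breaks down monoamines, had 101, 95.1 and 106 CPM in CreER-positive libraries and 129, 121 and 125 CPM in controls. These did not overlap (-0.31, edgeR adjusted p 0.0507), and DESeq2 called it (0.000465). Qdpr, which recycles the cofactor, had a log2 fold change of 0.28 (adjusted p 0.169 by edgeR, 0.0296 by DESeq2).

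Th is also made by sympathetic neurons. Of 8 markers of those cells, 2 had enough counts to test, and neither was called by edgeR or at an unadjusted p under 0.05. Their summed level was 15.4 to 15.7 CPM in CreER-positive libraries and 14.9 to 15.6 CPM in controls, nearly all of it Slc18a2. Dbh, which makes noradrenaline, had 7, 1 and 2 counts in CreER-positive libraries and 3, 1 and 1 in controls, beside at least 3862 counts of Th in every library.

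Neighbouring neuron classes were set beside the C-LTMR genes. Mrgprd, the receptor gene of non-peptidergic nociceptors, had 64.2, 54.9 and 60.4 CPM in CreER-positive libraries and 135, 139 and 144 CPM in controls (-1.22, edgeR adjusted p 0.000249), and Prkcq (-0.68) and Plxnc1 (-0.43, 0.0437) fell as well among 9 markers of that class. The Plxnc1 call ended in 5 of the 6 fits without 1 library, all but the one without CreER-positive replicate 3 (adjusted p up to 0.235), and with DESeq2 size factors (0.0508). The 9 went both ways, 3 with positive and 6 with negative log2 fold changes, and their median was -0.04. Of them, edgeR called 3, beside 0.726% of all tested genes, and DESeq2 called 5, beside 430 of the 22043 tested genes. An unadjusted edgeR p under 0.05 was found for 5, beside 2330 of the 22043. The groups did not overlap for 6, beside 15.9% of all tested genes in either direction. Mrgprb4, which marks another class of stroking-sensitive C fibres in mice and was singled out after its values were seen, had 25.0 ± 0.849 CPM in CreER-positive libraries and 25.1 ± 3.69 CPM in controls (-0.01, 95% interval -0.22 to 0.21). None of 11 markers of A-fibre mechanoreceptors and proprioceptors was called by edgeR or DESeq2 (3 at an unadjusted p under 0.05), with a median of -0.02. The lowest p there were those of Cadps2 (log2 fold change -0.23, adjusted p 0.250) and Necab2 (-0.24, 0.417). None of 8 peptidergic nociceptor markers was called by edgeR (5 at an unadjusted p under 0.05, 1 by DESeq2, Tac1 at a log2 fold change of 0.39), with a median of 0.17. For 4 of these 8 the groups did not overlap, each higher in CreER-positive libraries, as were 6.63% of all tested genes. None of the 11 pan-neuronal markers was called by edgeR or DESeq2 (2 at an unadjusted p under 0.05, Tubb3 at 0.31 and Isl1), with a median of -0.01.

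For each C-LTMR gene, the genes with the most similar profile over the 6 libraries were found by the root mean square (RMS) difference of log2 CPM, each gene centred on its own mean, among 16299 genes with a symbol and at least 1 CPM. Nearest to Tafa4 were Rarres1 (RMS difference 0.0239), Runx1 (0.0443) and the palmitoyltransferase gene Zdhhc23 (0.0482). Nearest to Pou4f2 were Rasgrp1 (0.0236), an activator of Ras, the phosphodiesterase gene Pde1b (0.0438) and the neurexophilin gene Nxph3 (0.0468). For Th they were the serotonin receptor gene Htr2a (0.0352), the cation channel gene Trpc4 (0.0462) and Gm35657 (0.0561). Slc17a8, which fell most, had neighbours at larger RMS differences, Gm31399 (0.0855), the transcription factor gene Pax5 (0.122) and 4932435O22Rik (0.123). This did not come with a lower correlation. Pearson r with the nearest gene was 0.9989 for Slc17a8, 0.9988 for Pou4f2, 0.9961 for Tafa4, 0.9935 for Th and 0.9737 for Zfp521. Zfp521 was nearest to Gm36907 (0.0490), Popdc2 (0.0508) and the guanine nucleotide exchange factor gene Kalrn (0.0527). Between the C-LTMR genes themselves the distance was smallest for Th and Tafa4 (0.116) and largest for Slc17a8 and Zfp521 (0.568). The 6 libraries form 2 groups, so the measure is not independent of the difference between them.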

How the data were processed

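In all, 6 libraries were analysed, 3 CreER-positive and 3 control, grouped by the genotype label. The submitters' processing notes name GSNAP, with no version, and the builds GRCm38 and mm10. How reads were counted, on which annotation and with which strand setting is not stated there. Per the file headers, the authors deposited a raw count per NCBI gene identifier, a gene width and an RPKM value, which is the count scaled by that width and the library size. Widths of the 5 genes equal or exceed their RefSeq spans, introns included, which lowers RPKM of long genes. RPKM was used only to compare levels between genes.

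Identifiers were matched to RefSeq symbols of GRCm38.p6 (31049 of 36528; the rest held 1.91% of counts). Counts were filtered with filterByExpr, scaled with TMM and tested with edgeR 4.0.16 (R 4.3.3) as described in the report, with SE taken as the log2 fold change over the square root of F. Alternatives were DESeq2 1.42.0, limma 3.58.1 (voom), other scalings, filters and fit settings, and leaving out libraries. Pair ratios had 0.5 added to each count. No library was a copy of another, since counts differed beyond sampling noise within each group. Between pairs of controls, chi-square was 6.01 to 9.02 times its degrees of freedom, and between pairs of CreER-positive libraries 35.4 to 43.9 times. CreER-positive libraries thus differed more among themselves, including replicates 1 and 2 (35.4), while edgeR used the same dispersion of a gene for both groups. Replicates were separate mice, and numbers follow accession order.

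The 5 genes, the lists and the alternatives were chosen with earlier results of these data known. Named are the 5 genes, their relatives and pathway genes, in each list the called genes and the 2 lowest p, and 3 nearest genes each. Ratios to relatives were added after seeing the data. The values of some list genes are not reported here. Figures used matplotlib 3.10.9.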

Additional observations from a re-analysis of the deposited data

How the results depend on the processing

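All 5 fold changes were negative under all 17 alternatives, and the calls of Slc17a8 (-1.56 to -1.22) and Pou4f2 (-0.85 to -0.66) held in each. Leaving out 1 library gave 2 to 5 called C-LTMR genes, log2 fold changes of -0.60 to -0.46 for Th (adjusted p 0.0111 to 0.121), -0.58 to -0.44 for Tafa4 (0.0180 to 0.132) and -0.42 to -0.22 for Zfp521 (0.04998 to 0.728), and 60 to 568 called genes in all. Without control replicate 2 and CreER-positive replicate 3 together, 2 C-LTMR genes were called, with Th at -0.44, Tafa4 at -0.48 and Zfp521 at -0.20. Other scalings, filters, tools and fit settings ended or added no call among the 5 genes. Over all genes, the 160 calls (124 lower, 36 higher) became 430 with DESeq2 (270 lower, 160 higher), and with libraries scaled to pan-neuronal counts 109 lower and 9 higher. Of 108 tested genes in the other lists, 8 were called, 14 by DESeq2, 4 without both libraries and 3 to 13 without 1 library. Of the 15 nearest genes, 7 were also among the nearest 3 by correlation. No paired analysis was possible because the labels give no replicate numbers. Depth limits the low pathway genes, such as Slc6a2 (8 to 24 counts), Ddc (38 to 88 counts) and those too low to test.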
